A study of Mus musculus with 4 samples.

Results

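In the mouse gastrocnemius, 10 genes, Zbtb20, Tns1, Sgms1, Msi2, Filip1l, Ahdc1, Wasf2, Neurl1b, Irf2bpl and Cipc, each had a transcript start inside one of the longest stretches of H3K27ac in that muscle. They are 10 of 21668 protein-coding genes (autosomes and X), and they were chosen by the covered length of those stretches in the lists used here, so that length is a description of how they were picked and not a finding. H3K27ac, acetylation of histone H3 at lysine 27, had been mapped by chromatin immunoprecipitation and sequencing in 1 group of animals: B6CASTF1/J hybrids, female and adult at 2 months of age, with no treatment named in the labels. The group had 2 biological replicates, each a pool of 2 tissue samples and each sequenced as 2 technical libraries that shared 1 alignment. The authors deposited 4 lists of acetylated regions in mm10 coordinates: a list per replicate, a pooled list and a list called replicated that was drawn from both. Values below are from the replicated list unless another is named, and the spread between replicates is read from the 2 single-replicate lists.

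H3K27ac is laid down by the acetyltransferases p300 and CBP at active promoters and enhancers, and it comes and goes with their use. Most enhancers carry it over a short stretch, while some genes with a key part in a cell type lie in clusters of many acetylated elements, known as super-enhancers or stretch enhancers. In skeletal muscle, fibre nuclei share the tissue with nuclei of vessels, connective tissue and other resident cells, and a map of whole muscle holds them all. In such bulk tissue, fewer cells of a type and less acetylation per cell cannot be told apart.

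The replicated list held 84450 regions covering 118.0 Mb on the autosomes and X. Replicate 1 had 70952 regions over 85.1 Mb and replicate 2 had 86935 over 117.8 Mb, a ratio of covered length of 0.722. Marker genes of muscle fibres had a region within 1000 bp of a start in both replicates in 8 of 8 cases, those of endothelium in 4 of 4 and those of fibroblasts in 4 of 4. The markers of leukocytes (0 of 4), adipocytes (0 of 3) and heart muscle (0 of 3) had no such region in the replicated list, and Schwann cell markers had 1 of 3 in both. Which cells carried the acetylation at the 10 genes was not tested. Read depth is unknown, and the number of replicates limits the precision of every value.

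Regions at most 12500 bp apart were joined into a domain, and the 23088 domains were ranked by the base pairs that regions cover in them. The 10 genes had their starts in 8 of the first 13 domains, since Ahdc1 and Wasf2 shared one and Irf2bpl and Cipc shared another, and members of such a pair are not independent of each other. All 10 members had a start in one of the 100 largest domains, as the choice required, beside 1.11% of all protein-coding genes, and nothing is read from that count. The lowest ranked domain with a member was that of Filip1l, with 116.2 kb covered. Just below it, without a member, came domains of 112.6 kb at Srsf1, Vezf1, Cuedc1 and Mrps23, of 112.4 kb at Nsmce4a and Tacc2, and of 111.9 kb with no protein-coding start. Higher up, domains without a member were those of Zbtb16 (146.6 kb, rank 2), Col4a1 and Col4a2 (129.99 kb, rank 7), Nfib (129.6 kb, rank 8), and Myoz3, Synpo, Ndst1 and Rps14 (118.5 kb, rank 12).

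**Figure D1:**
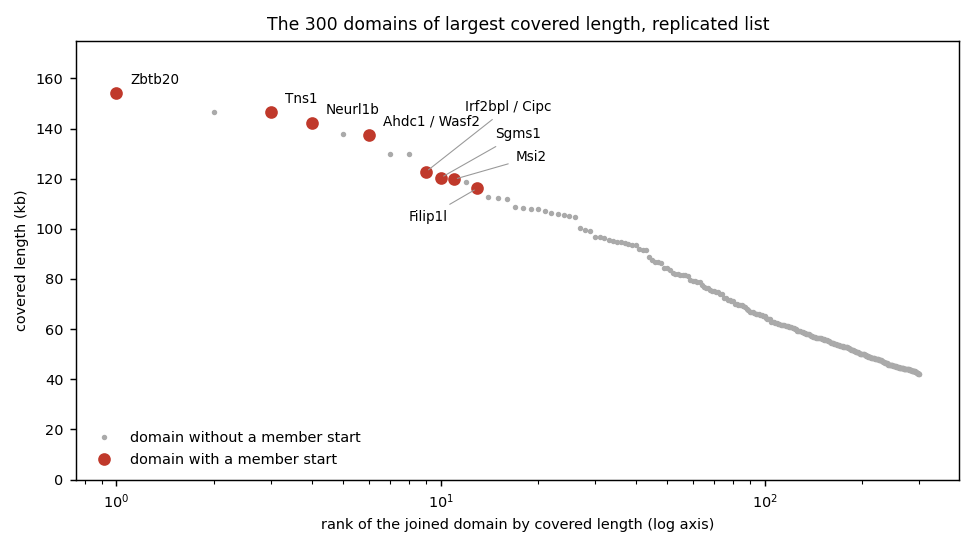
Covered length in kb of the 300 largest joined domains of the replicated list against their rank on a log axis, 1 point per domain. The 8 domains with a start of a member (large points) run from 154.0 kb at Zbtb20 down to 116.2 kb at Filip1l, and domains without a member lie between and just below them.

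In the replicated list the domains stood in 2 different relations to the genes, by how much of the domain the gene filled. At Zbtb20, Tns1, Sgms1, Msi2 and Filip1l, genes of 214.2 to 766.7 kb, most of the domain lay inside the gene: 100% of it at Zbtb20, 99.4% at Sgms1, 96.0% at Msi2, 95.9% at Tns1 and 75.4% at Filip1l. At the other 5 members the gene lay inside the domain and filled little of it: 28.8% at Wasf2, 27.8% at Ahdc1, 11.02% at Neurl1b, 8.85% at Cipc and 1.98% at Irf2bpl. These 5 genes were 4.10 to 69.3 kb long, all fully inside their domain but for the outermost 35 bp of Neurl1b. Sgms1 and Filip1l also lay fully inside theirs. The split changed with the list. In replicate 1 the gene held 100% of the domain at Neurl1b, 54.6% at Ahdc1 and 36.1% at Filip1l. In replicate 2 it held 9.43%, 31.9% and 90.0%. The members had a median length of 141.7 kb, beside 17.4 kb for all protein-coding genes, and Irf2bpl was shorter than most genes, with 15.0% of them shorter still.

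**Figure D2:**
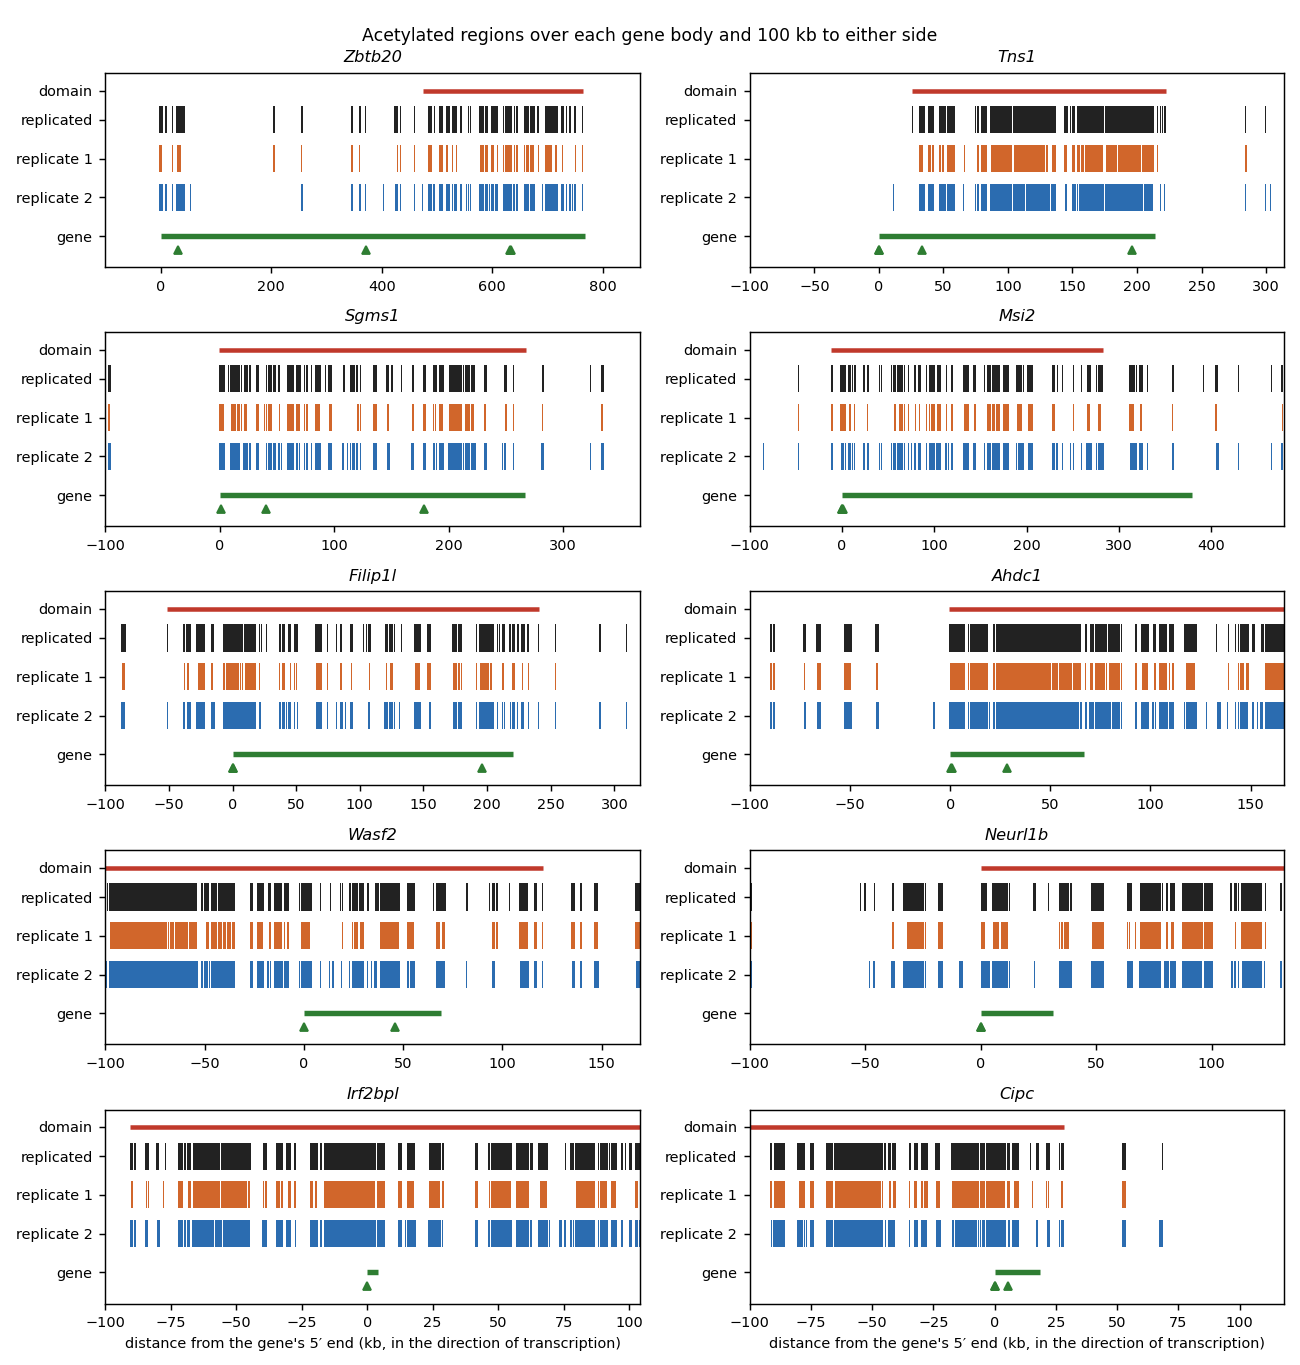
Acetylated regions (bars) in the replicated list and in each single-replicate list over each gene body (line at the bottom, with triangles at protein-coding transcript starts) and 100 kb to either side, by distance in kb from the gene's 5′ end. The line at the top is the joined domain of the replicated list. It lies wholly inside the gene at Zbtb20 and almost wholly at Tns1 (95.9% of it) and Sgms1 (99.4%). It reaches far past the gene at Ahdc1, Wasf2, Neurl1b, Irf2bpl and Cipc. Each panel has its own horizontal scale.

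The first members are nuclear regulators, followed by the RNA-binding Msi2. Zbtb20 encodes a BTB zinc finger repressor of transcription, and its gene (chr16:42875881-43642602, plus strand) was the longest of the 10. Its domain (chr16:43349735-43639266) began 473.9 kb and ended 763.4 kb from the gene's 5′ end, and it held 2 of the 4 protein-coding starts. In it, 77 regions covered 154.0 kb, or 53.2%. The part of the gene upstream of the domain was sparse: introns 1, 4 and 7, of 99.3, 74.4 and 69.7 kb, were covered over 11.9%, 8.21% and 11.7%. Intron 8 (160.3 kb) and intron 9 (106.7 kb) together held most of the covered length, 62.6 kb and 59.6 kb. Replicate 1 covered 22.9% of intron 8 and 41.4% of intron 9, and replicate 2 covered 39.1% and 55.4%. The highest signal values around the gene were not in the domain but on either side of the gene's annotated 5′ end, 48.2 for a region with its summit at -0.97 kb and 45.8 for one with its summit at 0.38 kb. Replicate 2 had 49.0 and 43.4 there. Replicate 1 had 36.9 and 38.4, below its 40.9 for a region of intron 8 inside the domain. No protein-coding transcript of the annotation's basic set starts there, and the first of the 4 that are annotated, 31.8 kb further in, lay under a region of 9325 bp with a signal value of 29.0. The signal value is the authors' own measure of a region's strength. The sources used here do not say what it is measured against, so values of different lists are set side by side and not compared.

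Irf2bpl, which encodes a nuclear RING finger protein named for its likeness to the binding proteins of IRF2, is a gene of 1 exon (chr12:86880701-86884798, minus strand). It was covered over 91.2% of its length, 81.3% in replicate 1 and 91.2% in replicate 2. A single region of 19882 bp (chr12:86881420-86901301) ran from the gene over its start and on upstream, and it was number 39 in width among all 84450 regions. Its signal value of 66.2, with 57.7 in replicate 1 and 66.2 in replicate 2, was the highest around any of the 10 members, in this list as in both single-replicate lists.

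Cipc, whose product binds CLOCK and represses the CLOCK and BMAL1 activators of the circadian clock, starts 62.2 kb from Irf2bpl in the opposite direction (chr12:86947043-86965362, plus strand). The 8181 bp region at its start had a signal value of 49.4, and 41.6 and 48.6 in replicates 1 and 2. Both genes lay in a domain (chr12:86768134-86975245) with 122.6 kb covered in 56 regions, and between their starts lay a further wide region of 10243 bp (chr12:86929642-86939884). Downstream of Cipc the acetylation ended early: 5.68% of the 100 kb downstream was covered, against 60.7% of the 100 kb upstream. The replicates gave 3.44% and 6.08% downstream, and 55.4% and 59.8% upstream, so the contrast was far larger than their difference.

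Ahdc1 encodes an AT-hook DNA-binding protein (chr4:133011260-133078110, plus strand). It had the highest share of covered sequence of all members, 92.8% of the gene body, with 87.2% in replicate 1 and 92.3% in replicate 2. Most of this was intron 2, 42.7 kb long and covered over 92.5%. The region at its inner start, chr4:133033935-133066490, was 32556 bp wide and number 5 in width in the whole replicated list. In replicate 1 the same stretch was covered over 95.2% but in 9 pieces, and in replicate 2 over 99.6% in 2 pieces. The unbroken width is therefore a property of the list, while the covered share was alike in both replicates.

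Msi2, Musashi 2, is an RNA-binding protein that controls translation (chr11:88339382-88718513, minus strand). Its domain reached from -11.9 kb to 282.9 kb, counted from the gene's 5′ end, with 119.7 kb covered in 66 regions. All 3 starts lay under 1 region of 4366 bp with a signal value of 57.0, and 45.6 and 55.5 in replicates 1 and 2. The next highest value around the gene was 28.9, in intron 5. Introns 5 (122.3 kb) and 6 (110.0 kb) held 48.1 and 48.8 kb of covered sequence. Their order turned with the list: intron 6 held most in replicate 1 and intron 5 in replicate 2.

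The second group of members act at the actin cytoskeleton and at adhesions. Tns1, tensin 1, links integrins to actin at focal adhesions (chr1:73910231-74124449, minus strand). Its domain (chr1:73902268-74098803) was the most densely covered of the 8, with 146.5 kb of 196.5 kb, or 74.5%, in 44 regions. Introns 4, 19 and 22 were covered over 98.0%, 98.8% and 100%, and intron 18 (26.96 kb) over 84.5%. The upstream end of the gene looked different: the outermost starts, 2 bp apart, lay outside the domain under a region of 316 bp with a signal value of 3.09. Replicate 1 had a region of 266 bp there and replicate 2 had none, so these 2 starts were the only ones of the 28 member starts without a region within 1000 bp in a single-replicate list. The strongest and the widest region lay far downstream, at 161.6 kb in intron 18 (49.5) and around the innermost start at 195.9 kb (21990 bp wide, number 29 in the list, signal value 22.5).

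Filip1l is the filamin A interacting protein 1-like gene (chr16:57353093-57573126, plus strand). Its domain ran from -51.2 kb to 240.6 kb, counted from the gene's 5′ end, and covered 116.2 kb in 75 regions. The outer starts had a region of 6870 bp with a signal value of 39.4, with 29.99 and 42.6 in replicates 1 and 2. The inner start, at 196.1 kb, had one of 7568 bp with 27.8, and 24.9 and 24.1 in the replicates. Between them, intron 1 (153.1 kb) held 56.4 kb of covered sequence, with 23.8% covered in replicate 1 and 34.1% in replicate 2. The regions of this domain to either side of Filip1l each lay in the body of another protein-coding gene. To which gene the acetylation belongs was not tested.

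Wasf2, also named WAVE2, activates the Arp2/3 complex that nucleates branched actin (chr4:133130505-133199756, plus strand). It was the one member with less coverage in its body (44.6%) than in its flanks (47.8%). The 100 kb upstream, which hold most of Ahdc1, were covered over 74.9%. Body and flanks had 32.3% and 42.96% in replicate 1, and 44.5% and 46.6% in replicate 2. Its 5′ start had a region of 5440 bp with a signal value of 31.7 (29.9 and 32.2 in replicates 1 and 2). The highest value around it, 52.4, lay at the start of Map3k6, a kinase of the MAP kinase cascade, 110.7 kb from the 5′ end of Wasf2 in the same domain. Gpr3, an orphan receptor that activates adenylate cyclase, and Cd164l2 also had starts in that domain.

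The last members are enzymes of membranes and of protein turnover. Sgms1, sphingomyelin synthase 1, makes sphingomyelin from ceramide in the Golgi (chr19:32122727-32389714, minus strand). Its domain (chr19:32121932-32390661) matched the gene of 266.99 kb almost end to end, from -0.95 kb to 267.8 kb counted from its 5′ end, and 76 regions covered 120.3 kb of it. Introns 5, 2 and 1 held 35.2, 34.6 and 21.8 kb. Coverage stopped with the gene, at 2.98% of the 100 kb upstream and 5.77% of the 100 kb downstream. The start region had a signal value of 32.1, and 43.3 and 34.2 in replicates 1 and 2. A higher value in the replicated list, 47.4, belonged to the start of the neighbour Asah2, a neutral ceramidase, which had 35.1 and 50.6 in the replicates.

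Neurl1b encodes a ubiquitin ligase of the Neuralized family, which promotes endocytosis of Notch ligands (chr17:26414829-26446349, plus strand). Its own part in the domain (chr17:26414864-26700686) was small. The gene held 10.95 of the 142.4 kb covered, and its start had a region of 918 bp with a signal value of 15.3 (13.5 and 16.6 in replicates 1 and 2). The domain's strongest region around the gene was 9127 bp wide with a signal value of 56.6 and lay 93.5 kb from the 5′ end of Neurl1b, at the start of Dusp1, a phosphatase that switches off MAP kinases. Ergic1, a protein of the compartment between endoplasmic reticulum and Golgi, and Atp6v0e, a subunit of the vacuolar proton pump, also had starts in it.

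Set side by side over gene body plus 100 kb to each side, the members had a median of 34.5% of base pairs covered in 55.5 regions, and all protein-coding genes 6.32% in 12 regions. The members were picked on covered length, and their longer genes (median 141.7 kb, beside 17.4 kb) give longer windows with room for more regions. Both contrasts are therefore descriptions and not findings. The members ranged from 21.4% at Zbtb20 (14.3% in replicate 1 and 21.3% in replicate 2) to 55.2% at Irf2bpl (46.6% and 54.3%). Ahdc1 and Wasf2 followed Irf2bpl, at 47.9% and 46.9%. Tns1 (35.9%), Cipc (35.1%) and Neurl1b (33.8%) lay close together, with replicate values of 30.3% and 34.4%, 30.4% and 34.3%, and 26.1% and 35.3%, so these 3 did not differ beyond the spread between replicates. Filip1l (29.5%), Sgms1 (27.3%) and Msi2 (24.8%) came next, with overlapping replicate values of 19.1% and 26.5%, 19.2% and 25.9%, and 17.5% and 26.0%. Replicate 1 was below replicate 2 in all 10.

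The gene body was more covered than both flanks together in 9 of 10 members, beside 47.7% of all protein-coding genes with any region, and the choice of members fixed much of this count. The medians were 44.5% of the body and 25.9% of the flanks, beside 4.23% and 5.86% over all protein-coding genes. Tns1 had 67.1% of the body and 2.51% of the flanks covered, with 57.6% and 0.99% in replicate 1 and 64.4% and 2.23% in replicate 2. Ahdc1 had 92.8% and 32.8%, with 87.2% and 26.6% in replicate 1 and 92.3% and 34.02% in replicate 2. The difference was wider at Tns1 in the replicated list and replicate 2, and wider at Ahdc1 in replicate 1. At Neurl1b it was within the spread: 34.7% and 33.7%, with replicate 1 the other way round at 20.0% and 27.1%.

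**Figure D3:**
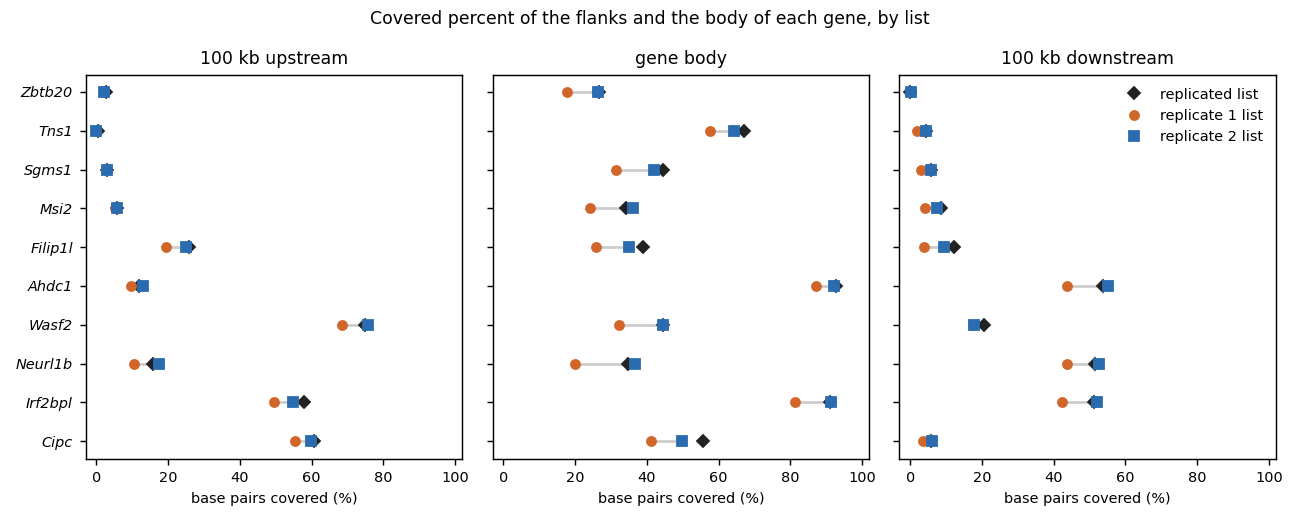
Percent of base pairs covered by regions in the 100 kb upstream, the gene body and the 100 kb downstream of each gene, in the replicated list (diamonds) and the lists of replicate 1 (circles) and replicate 2 (squares). Bodies are covered over 92.8% at Ahdc1 and 91.2% at Irf2bpl, while the flanks of Zbtb20, Tns1 and Sgms1 stay under 6%.

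The replicates agreed on the strong and wide regions and parted on the narrow, weak ones. Of the base pairs covered in either replicate, both covered 62.8% at Zbtb20, the lowest, and 82.7% at Ahdc1, the highest, with a median of 74.9%. Nearly all of the base pairs in replicate 1, 93.9% to 97.9%, were also covered in replicate 2. The members fell apart by the ratio of covered length in replicate 1 to that in replicate 2. It was 0.672 at Zbtb20, 0.673 at Msi2, 0.720 at Filip1l, 0.739 at Neurl1b and 0.741 at Sgms1, near the 0.722 of the whole lists. It was 0.859 at Ahdc1 and Irf2bpl, 0.873 at Wasf2, 0.880 at Tns1 and 0.886 at Cipc. The windows of Ahdc1 and Wasf2 overlap, as do those of Irf2bpl and Cipc, so the ratios within each pair are not independent. The split into lower and higher ratios was read from these same values. At Zbtb20, for example, the 71 regions found in both replicates had a median width of 1884 bp and a median signal value of 6.30. The regions there that replicate 1 lacked had medians of 554 bp and 3.22.

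A few weak regions held some of the domains together. In the 8 domains, 36 of 519 regions were the sole link between 2 parts, in that without that region a gap of over 12500 bp would open. That gap includes the region's own width, so a region wider than 12500 bp with others on both sides is a link by this rule alone. Of the 36 links, 29 were found in both replicates and had a median width of 4141 bp and a median signal value of 15.4. Such wide regions were all among these 29 and raise their medians. The other 7 links had medians of 429 bp and 3.16. Of these 7, 3 were found in replicate 2 only, and 4 in neither single-replicate list nor in the pooled list. The domains of Zbtb20, Ahdc1 and Wasf2, Neurl1b, and Irf2bpl and Cipc had none of these 7.

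At Sgms1 the link was a region of 429 bp (chr19:32230857-32231285) with a signal value of 2.30 and a −log10 q of 2.14, absent from the replicate and pooled lists. It joined parts of 75.8 kb and 44.1 kb of covered length. In the lists without it, the larger domain with a start of Sgms1 covered 51.9 kb in replicate 1 (rank 72), 71.1 kb in replicate 2 (rank 74) and 77.2 kb in the pooled list (rank 64). Msi2 had a link of 319 bp (chr11:88502935-88503253, signal value 3.29) and Filip1l had 2 of 264 and 319 bp, also absent from those 3 lists. The larger domain with a start of Filip1l ranked 247, 103 and 73 in replicate 1, replicate 2 and the pooled list, and it held the outer starts in replicate 1 and the inner start in the other 2 lists.

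The replicate 1 list broke further domains. At Neurl1b its domain was cut by a gap of 22.4 kb and held 6.30 kb of covered length (rank 3301), while in replicate 2 it held 157.7 kb and was the largest of all. The rest of the domain was not lost: the neighbouring piece around Dusp1 covered 111.0 kb, at rank 3 in replicate 1. At Msi2 the start lay in a piece of 13.1 kb (rank 1407) in replicate 1 and of 103.9 kb (rank 20) in replicate 2. The ranks of Tns1 (2 and 3), Irf2bpl and Cipc (5 and 8), and Ahdc1 and Wasf2 (9 and 6) stayed within the first 10 in both replicates, and Zbtb20 ranked 14 and 2.

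**Figure D4:**
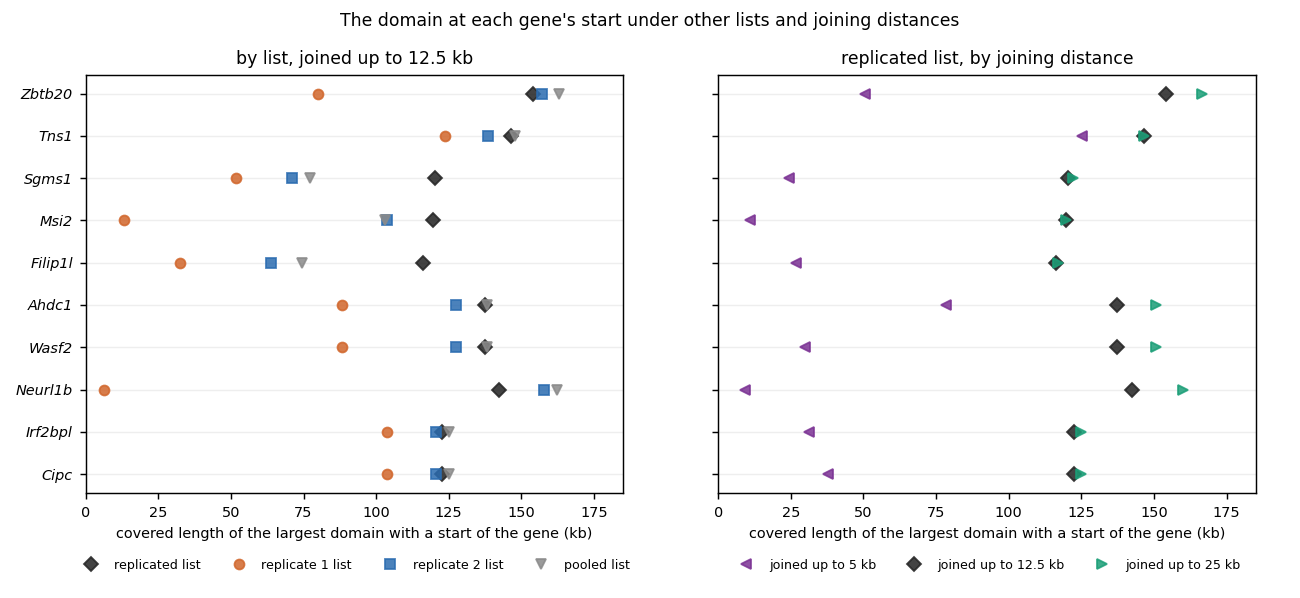
Covered length in kb of the largest domain that holds a start of each gene, on the left in the 4 lists with regions joined up to 12500 bp apart, on the right in the replicated list with that distance and with 5 and 25 kb. Replicate 1 (circles) lies at 6.30 kb for Neurl1b and 13.1 kb for Msi2, and with joining up to 5 kb only Tns1 keeps over 100 kb.

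The choice of list and the distance that joins regions both moved the ranks. In replicate 1, 7 members had a start in one of the 100 largest domains, and in replicate 2, 9 had. With regions joined up to 5 kb apart, 3 members, Tns1 (rank 3), Ahdc1 (14) and Zbtb20 (62), had a start in one of the 100 largest domains, and Neurl1b fell to rank 2574 and Msi2 to 1971. With 25 kb all 10 did, between rank 11 for Zbtb20 and rank 59 for Filip1l.

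All 10 members had a region within 1000 bp of a start in both replicates, beside 58.6% of all protein-coding genes. The members were chosen for a start inside a long domain, which made such a region likely, so nothing is read from this count. Of the 28 starts, all had a region in the replicated list and in replicate 1, and 26 in replicate 2. For 3 of the 10, Msi2, Filip1l and Irf2bpl, the highest signal value in gene body plus 100 kb lay at an own start, beside 24.2% of all protein-coding genes with a region there. For Sgms1, Ahdc1, Wasf2, Neurl1b and Cipc it lay at the start of a neighbour, for Tns1 in intron 18 and for Zbtb20 just upstream of the gene. In replicate 1 Sgms1 joined the 3, and the strongest region of Zbtb20 was then one in intron 8.

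The promoter sequences of the members are shown where the starts differ most: the 3 members whose own start was the strongest, and the weak 5′ start of Tns1. They come from RefSeq on GRCm38.p6 and hold 250 bases before the start and 50 after it, 5′ to 3′ on the gene's strand. Capitals mark the strings CAGCTG (E-box of myogenic factors), CACGTG (E-box of CLOCK and related factors), TTGGCA (NFI), GGGCGG (Sp and KLF factors) and CCAAT, on either strand. In Irf2bpl a pair of Sp and KLF strings adjoin, and in Msi2 one adjoins CACGTG.
Irf2bpl (chr12:86884765-86885064, minus strand): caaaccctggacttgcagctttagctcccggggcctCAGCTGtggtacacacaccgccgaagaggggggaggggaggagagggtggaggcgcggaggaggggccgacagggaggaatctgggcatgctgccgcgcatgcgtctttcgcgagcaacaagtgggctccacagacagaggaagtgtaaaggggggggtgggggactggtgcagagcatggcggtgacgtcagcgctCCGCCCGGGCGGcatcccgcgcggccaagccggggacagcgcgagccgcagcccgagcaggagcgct
Msi2 (chr11:88718228-88718527, minus strand): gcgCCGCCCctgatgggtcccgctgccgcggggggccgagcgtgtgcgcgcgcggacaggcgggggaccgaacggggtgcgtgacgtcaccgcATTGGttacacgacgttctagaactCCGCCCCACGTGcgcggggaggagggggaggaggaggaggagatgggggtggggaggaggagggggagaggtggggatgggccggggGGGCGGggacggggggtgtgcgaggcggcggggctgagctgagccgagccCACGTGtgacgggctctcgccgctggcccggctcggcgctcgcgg
Filip1l (chr16:57353027-57353326, plus strand): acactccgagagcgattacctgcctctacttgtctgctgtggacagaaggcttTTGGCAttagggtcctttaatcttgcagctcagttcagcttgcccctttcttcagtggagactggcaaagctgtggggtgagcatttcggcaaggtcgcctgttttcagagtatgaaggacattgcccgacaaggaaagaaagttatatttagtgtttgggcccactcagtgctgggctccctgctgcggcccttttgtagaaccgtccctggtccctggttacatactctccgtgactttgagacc
Tns1 (chr1:74124499-74124798, minus strand): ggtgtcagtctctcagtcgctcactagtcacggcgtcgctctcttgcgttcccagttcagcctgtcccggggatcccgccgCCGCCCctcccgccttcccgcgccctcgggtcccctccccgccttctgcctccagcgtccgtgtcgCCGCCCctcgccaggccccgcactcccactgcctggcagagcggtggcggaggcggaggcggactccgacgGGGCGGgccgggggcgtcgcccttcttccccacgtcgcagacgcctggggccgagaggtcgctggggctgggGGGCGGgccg

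CpG content and signal values did not have the same order in these 4 promoters. Msi2, Tns1 and Irf2bpl had 39, 37 and 26 CpG in these 300 bases and an observed over expected ratio of 1.00, 0.87 and 0.76, while Filip1l had 8 CpG and a ratio of 0.40. The CpG-rich Tns1 promoter had a highest signal value of 2.31, from a region of 484 bp that both single-replicate lists lacked, and the CpG-poor one of Filip1l 39.4. The other RefSeq promoter of Filip1l, at its inner start, was CpG-rich, with 32 CpG, a ratio of 0.90 and a signal value of 27.8. The 4 were picked by signal value, so their order does not speak for promoters in general. RefSeq listed 17 promoters for the 10 members, with medians of 29 CpG and 69% G and C. All 32851 promoters in the table had medians of 7 CpG and 52.7%. The members were chosen for a start inside a long domain, while all promoters include those without a region. These contrasts and the counts of strings that follow are therefore descriptions, and what part base composition has in the counts was not tested. GGGCGG occurred in 12 of the 17, beside 35.7% of all promoters, CCAAT in 8 (37.4% of all), TTGGCA in 5 (14.1%), CACGTG in 4 (7.15%), CATTCC, the MCAT element of TEAD factors, in 4 (14.7%), CAGCTG in 2 (16.3%) and the AP-1 string TGANTCA in 1 (7.81%). The strings of MEF2, the glucocorticoid response element, MEF3 and the D-box, spelled out below, occurred in 0 of the 17. Over all promoters they occurred in 0.947%, 6.85%, 4.07% and 3.38%. Promoters of 1 member overlap, as the 3 of Msi2 do, so these counts are not of independent sequences.

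Inside the gene bodies, 93.8% of the covered base pairs lay in introns, 93.7% in replicate 1 and 93.9% in replicate 2, beside 86.4% over all protein-coding genes. Introns made up 94.5% of the members' gene bodies and 89.4% of those of all protein-coding genes, so the covered share was close to the share of the sequence that is intronic. The first intron held the most covered sequence in 4 of the 9 members that have introns, Filip1l, Wasf2, Neurl1b and Cipc, beside 66.5% of all protein-coding genes with at least 2 introns and a covered base in them. For Zbtb20, Tns1, Sgms1, Msi2 and Ahdc1 it was a later intron in the replicated list and in both replicates. In the replicated list the most covered intron was also the longest at every member with introns but Msi2 and Cipc. The first introns of Msi2 and Ahdc1, of 0.283 and 0.666 kb, were covered throughout. The count is of covered length and does not allow for intron length.

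Most regions in the 10 windows, and the largest share of the covered length, counted as intronic, with lower medians than regions at starts. Of 577 regions, each counted once, 340 counted as intronic: they overlapped a member's gene body, touched none of its exons and were not at a start. They held 49.7% of the covered length, with a median width of 901.5 bp and a median signal value of 4.25. A few of them, at Zbtb20, lay before its first protein-coding start and so in no intron of a protein-coding transcript. The 23 at starts of the members had medians of 5440 bp and 20.3. All 84450 regions of the replicated list had medians of 860 bp and 4.77, near those of the intronic ones. In replicate 1 the medians of the signal value were 4.51 for introns and 12.6 for starts, and in replicate 2 4.61 and 24.8. A region counts as at a start wherever any of its bases lies within 1000 bp of one, so wide regions fall there more readily. Wide regions also touch an exon more readily and then do not count as intronic.

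**Figure D5:**
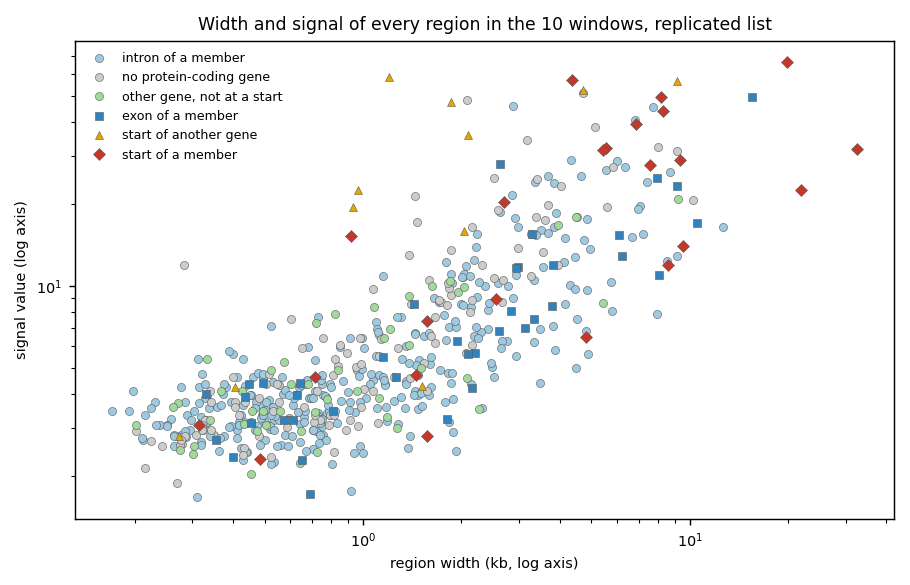
Signal value against width in kb, both on log axes, of the 577 regions in the windows of the 10 genes in the replicated list, 1 point per region, marked by place. Regions at starts of the members (diamonds) lie mostly to the upper right, with medians of 5440 bp and 20.3. Those counted as intronic (pale circles) crowd at the lower left. The highest pale circle, 45.8, lies at the annotated 5′ end of Zbtb20, and the next, 45.4, in its intron 8.

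Some regions with a summit in an intron were as strong as those at starts. The 201 bases around the strongest summit in an intron of the longest protein-coding transcript are given here for 4 members, on the gene's strand of GRCm38.p6 with the same strings in capitals, to set them beside the promoters.
Tns1 intron 18 (chr1:73962766-73962966, minus strand): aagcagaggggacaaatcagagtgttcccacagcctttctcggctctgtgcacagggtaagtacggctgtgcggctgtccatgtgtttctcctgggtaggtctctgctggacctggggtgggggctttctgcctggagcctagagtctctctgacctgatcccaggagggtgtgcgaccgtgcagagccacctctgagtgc
Zbtb20 intron 8 (chr16:43363444-43363644, plus strand): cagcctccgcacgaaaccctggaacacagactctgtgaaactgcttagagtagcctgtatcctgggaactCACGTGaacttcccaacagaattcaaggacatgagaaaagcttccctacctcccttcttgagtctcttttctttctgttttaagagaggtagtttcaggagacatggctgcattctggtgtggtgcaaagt
Sgms1 intron 5 (chr19:32196000-32196200, minus strand): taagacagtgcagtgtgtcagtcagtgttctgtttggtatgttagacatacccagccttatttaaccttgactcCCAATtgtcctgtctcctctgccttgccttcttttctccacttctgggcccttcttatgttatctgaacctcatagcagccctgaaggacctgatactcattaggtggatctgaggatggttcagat
Msi2 intron 5 (chr11:88655211-88655411, minus strand): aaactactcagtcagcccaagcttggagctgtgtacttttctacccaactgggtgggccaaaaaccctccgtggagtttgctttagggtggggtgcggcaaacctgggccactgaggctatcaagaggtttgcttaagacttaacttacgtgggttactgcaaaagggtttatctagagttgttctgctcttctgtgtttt

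These 4 windows had signal values of 49.5, 45.4, 29.0 and 28.9 and held 5, 3, 0 and 3 CpG. The Zbtb20 window held CACGTG and the Sgms1 window CCAAT. The Tns1 and Msi2 windows held none of the strings searched, which says only that these letters are not there.

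Over all 543 regions of the 10 windows that lay away from protein-coding starts, windows of 300 bases at the summits held the searched strings about as often as those of all 69271 such regions of the list. CCAAT occurred in 27.1% of the members' windows and 29.7% of all, CAGCTG in 19.3% and 20.3%, CATTCC in 18.0% and 16.7%, and TTGGCA in 16.2% and 17.3%. AP-1 (TGANTCA) was found in 7.92% and 9.51%, the glucocorticoid response element (ACANNNTGT) in 7.55% and 9.54%, and GGGCGG in 6.63% and 5.83%. The D-box (TTATGNAA) was found in 4.24% and 3.92%, MEF3 (TCAGGTT) in 3.68% and 4.81%, CACGTG in 2.76% and 3.99%, and MEF2 (CTAAAAATA or CTATTTATA) in 1.10% and 1.09%. Both strands were searched and motifs may overlap one another. A match is a string and not a binding site.

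Within the domains, covered and uncovered sequence differed in composition. In the 8 member domains the regions had 48.2% G and C and 15.4% repeat sequence, and the gaps between them 44.7% and 26.8%. The same direction held in each of the 8. Repeats in regions ran from 11.98% at Msi2 to 22.04% at Irf2bpl and Cipc. In gaps they ran from 19.3% at Zbtb20 to 42.997% at Irf2bpl and Cipc. The other 1816 long domains, those past the bend of the ranked curve, had 48.8% G and C and 16.6% repeats in regions, and 45.8% and 29.4% in gaps. How far reads could be placed in the repeats of the gaps was not tested.

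Relatives of the members were not picked on covered length, as the members were, so shorter domains among them follow from the choice and their values are given as a description. Of 23 genes related by family or, for Cipc, by the circadian clock, 19 had a region at a start in the replicated list, and Tns4, Sgms2, Msi1 and Wasf3 had none. The median covered share of gene body plus 100 kb was 34.5% over the members and 14.8% over the relatives, but 7 of the 23 relatives lay above the 21.4% of Zbtb20, the lowest member. These were Irf2bp2 (43.8%), Neurl2 (32.5%), Neurl4 (30.9%), Neurl1a (26.6%), Per1 (24.0%), Msi1 (23.7%) and Irf2bp1 (22.3%). Only Irf2bp2, a close relative of Irf2bpl, had a start in one of the 100 largest domains of the replicated list (rank 30, 96.7 kb), and its window was covered over 36.6% in replicate 1 and 42.9% in replicate 2. Per1, a core clock repressor, had the highest signal value at a start of all 23, 70.6, in a domain of 47.7 kb (rank 226). In the replicated list no relative had a domain as large as the lowest of the members, 116.2 kb at Filip1l. The single-replicate lists differed. In replicate 1 Filip1l (32.4 kb), Msi2 (13.1 kb) and Neurl1b (6.30 kb) had smaller domains than the relatives Irf2bp2 (55.8 kb), Per1 (38.7 kb) and Filip1 (34.6 kb). Sgms1 (51.9 kb) was below Irf2bp2 there as well. In replicate 2 Filip1l had 63.7 kb and Irf2bp2 65.9 kb.

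By the covered length of gene body plus 100 kb, ranked over the replicated and the 2 single-replicate lists, the 3 highest genes that are no members were Gm20388 (mean rank 1), Fgfr2 (2) and Ablim1 (7). The first pair are annotated over 4435 and 2961 kb and had 728.8 and 432.6 kb covered, far above every member, so the length of the gene model enters this order and they are not the nearest to the members. Ablim1, with a gene of 282.2 kb, had 166.7 kb covered, 117.3 kb in replicate 1 and 165.0 kb in replicate 2. Among the members, Zbtb20 had mean rank 3, while Neurl1b and Cipc, small genes whose domains extend beyond the window, had mean ranks of 408.7 and 424.7.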

How the data were processed

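H3K27ac was measured in 1 group of 2 biological replicates, and the authors deposited 4 region lists in narrowPeak format on mm10. Per the deposited descriptions, 1 was made from each replicate's alignment, 1 from the pooled replicates and 1, called replicated, from both. The sources used here do not name the aligner, the caller or its thresholds, and the control library was not analysed here. The signal value is a score that the authors deposited for each region, and its scale is not given. The authors also deposited q-values as −log10. The lists hold no read counts, so depth is unknown and no interval that needs it is given.

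Genes, transcripts and introns were taken from GENCODE M21, basic set, with introns of the longest protein-coding transcript. Regions up to 12500 bp apart were joined into domains. Windows were the gene body plus 100 kb on each side, and a region was shared between lists where 50% of the shorter one overlapped. Promoters came from RefSeq and other sequence from the GRCm38.p6 assembly, read with pysam 0.24.0 under Python 3.11.15. The interval arithmetic was tested on simulated regions. The members, and the gene and motif lists, were chosen with earlier results of these data known. The members were selected on covered length, so no test was made and all values are descriptions. The genes named beside the members are those that start in a member's domain, those in the 5 highest domains with a protein-coding start and no member, those in the 3 domains just below, the listed relatives, the 3 other genes with the largest covered length, and neighbours that hold the highest signal value, named after the values were seen. Alternatives were the other lists, each replicate alone, a −log10 q of at least 5, other flanks, joining distances, start distances and exon models.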

Additional observations from a re-analysis of the deposited data

How the results depend on the processing

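Over 10 summary values, 33 of 54 alternatives stayed within 1 SD of the 2 replicate lists, or within 1.5-fold for counts. The SD comes from the same 2 lists that are then judged by it, so this tally is no measure of robustness. For the median number of regions the SD was only 0.354, and every alternative counted as a move. The fall from 10 to 7 members in the 100 largest domains, in replicate 1, did not. The share covered in both replicates has no such SD, since it needs both lists, so any change in it counts as a move. The 21 alternatives that moved are given here, the cause of none having been tested beyond what the setting itself changes. The median covered share of the windows was 34.5%, and 28.2% to 34.4% when 1 replicate was left out. The median number of regions, 55.5, was 58 to 58.5 with 1 replicate left out, 59 in the pooled list, 45.5 with a −log10 q of at least 5 and 46.5 with flanks of 50 kb. The median longest gap in a domain, 10.97 kb, was 9.79 to 10.8 kb with 1 replicate left out, 3.33 kb when regions were joined up to 5 kb apart and 17.8 kb when joined up to 25 kb. The median covered share of the domains, 55.2%, was 52.3% to 54.5% with 1 replicate left out, 57.9% with the q limit, 67.5% and 45.7% with joining up to 5 and 25 kb, and 51.5% with each shared domain counted once. The intronic share of the covered gene bodies was 93.8%, 93.7% to 93.9% with 1 replicate left out, and 93.5% with the exons of all transcripts merged. With joining up to 5 kb, 3 members instead of 10 had a start in one of the 100 largest domains. The median share of base pairs covered in both replicates, 74.9%, was 74.4% with the q limit, 71.1% with flanks of 50 kb, and 77.0% and 95.8% of the base pairs of replicate 2 and of replicate 1. Counting each shared domain once, and the annotated 5′ end of a gene as a start, were chosen after seeing the data, and the second raised the members with their strongest region at an own start to 4, by adding Zbtb20. No paired analysis was possible because there was 1 group of samples. With depth unknown, a gap is only sequence in which no region was listed, and weak acetylation there could not be measured.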

Other observations

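Several domains also held starts of non-coding genes of the annotation, some of them under regions named above. Gm9968, annotated as antisense, has its 5′ end at position 43363666 of chromosome 16, just outside the 201 bases printed for intron 8 of Zbtb20. Gm15713, also annotated as antisense, lay in the same domain. C030037D09Rik, a long non-coding gene that begins at position 88718645 of chromosome 11 and runs away from Msi2, starts under the region of 4366 bp at the Msi2 starts. 2700046G09Rik, annotated as a non-coding gene of a bidirectional promoter, starts under the region of 5533 bp at the Sgms1 start. Gm26698, a long non-coding gene upstream of Irf2bpl on the same strand, lies wholly under the region of 19882 bp. The lists give no strand, so acetylation of a gene and of a partner under the same region could not be told apart.

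The domain at rank 5 by covered length (chr12:79707027-80018778) covered 137.9 kb in 86 regions and held no protein-coding start, and so gave no member.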
